A study of Mus musculus with 11 samples.

Results

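Neural crest was compared with neuroepithelium in CD1 outbred mouse embryos at embryonic day 8.5 (E8.5), over every gene the arrays name. The comparison took in all samples labelled as one of these tissues, 5 arrays of neural crest and 3 of neuroepithelium, which is 8 of the 11 arrays of the series, and 19938 genes. Both groups were wild-type tissue with no allele, transgene or treatment named in the labels. Embryos were flash frozen and cut on a cryostat, and cells were taken by laser capture microdissection, in which a laser lifts chosen cells from a section. Their RNA was amplified before it was hybridised to Affymetrix mouse ST arrays. The series' text speaks of single cells, but the labels give neither a cell count nor an embryo for any array, so p-values measure only the spread between these arrays, which may be technical. The other 3 arrays, of paraxial mesoderm from the same stage, entered the fit only to estimate spread. In such captures, fewer cells of a type and less RNA per cell cannot be told apart.

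Neural crest cells arise at the dorsal edge of the neuroepithelium, the polarised epithelium that folds into the neural tube. They leave it by delamination, an epithelial to mesenchymal transition in which a cell gives up its tight junctions and apical and basal polarity, alters its adhesion molecules and its actin cytoskeleton, and passes through the basement membrane to migrate. Snail family repressors are textbook drivers of the step. They bind short E-box sequences in the promoters of epithelial genes, Cdh1 (E-cadherin) being the classic target.

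Each deposited value is a ratio to the probe's own reference, which is the median over 9 arrays, among them 8 of the 11 analysed here. Neuroepithelium array 2 and crest arrays 3 and 5, whose median ratio was not exactly 1, lie outside that reference. Whether this affects the counts per array was not tested. A gene at 1 sits at its reference, whether it is silent or active everywhere, so ratios give no expression level and no order between genes. A gene is called high on an array at a ratio of 4 or more and low at 0.25 or less. A low ratio says that most reference arrays were at least 4-fold above that array. Differences are crest minus neuroepithelium on the log2 scale with the standard error (SE) of the fit by limma, whose p-values are adjusted over all 19938 genes by the Benjamini-Hochberg method, with a threshold of 0.05.

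Most genes did not move off their reference: 15134 of 19938 (75.9%) were never more than 2-fold away on any of the 8 arrays. The arrays differed widely in how many genes were high, 735, 580 and 1122 on neuroepithelium arrays 1 to 3 and 410, 1159, 1064, 410 and 1500 on crest arrays 1 to 5. The low counts were 151, 405 and 101 in neuroepithelium and 503, 73, 138, 297 and 67 in crest. Crest arrays 1 and 4 therefore had the fewest high genes and the most low ones of their group. The tissues did not differ in these counts beyond the spread between arrays (exact permutation test, two-sided, n = 5 and 3, p = 0.786 for high and p = 1 for low genes, where the smallest p possible is 0.0179). Over all genes, the log2 ratios of 2 arrays correlated at 0.0586 to 0.367 within crest, 0.142 to 0.156 within neuroepithelium and -0.00703 to 0.346 between the tissues, so arrays of one tissue were in general no more alike than arrays of different tissues.

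**Figure D1:**
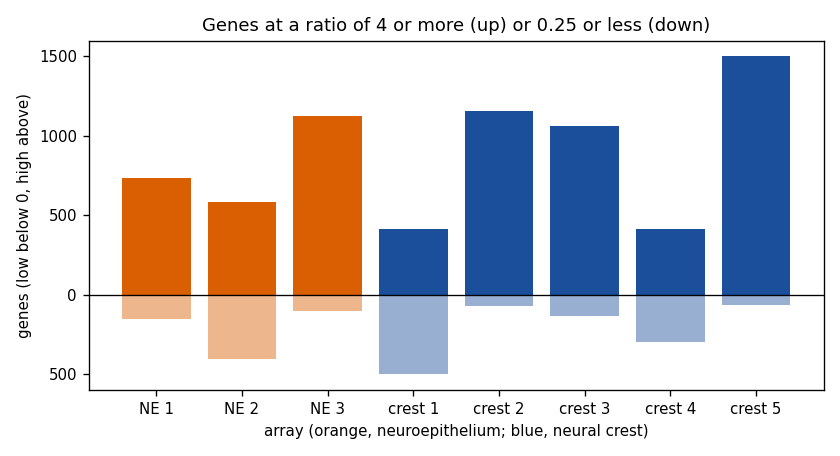
Number of genes at a ratio of 4 or more (solid bars, above 0) and at 0.25 or less (pale bars, drawn below 0) on each of the 3 neuroepithelium arrays (orange) and 5 crest arrays (blue). Crest arrays 1 and 4, with 410 high genes each, carry the most low genes of the crest group, 503 and 297.

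Against that spread, 2 genes rose in crest (0.01% of genes tested) and 4 fell (0.0201%). The genes that rose were Snai1 and Ddx47, and those that fell were Epcam, Ypel1, Gm5617 and Anxa7. At an unadjusted p under 0.05 there were 557 genes, fewer than the 997 of a uniform spread. Counted without a test, 10 genes were high on all 3 neuroepithelium arrays and on no crest array (0.0502% of genes), 4 were high on all 5 crest arrays and on no neuroepithelium array (0.0201%), and 7 were low on all neuroepithelium arrays and on no crest array (0.0351%). No gene was low on all 5 crest arrays and on no neuroepithelium array (0 of 19938). The 6 genes that passed the test all belong to the first and the second of these classes. A fit whose variance could follow each gene's mean log2 ratio, a trend, gave counts of 0 and 2 (Epcam and Ypel1). That mean is not an intensity. Adjusted p-values by limma in that fit were 0.0585 for Snai1, 0.27 for Ddx47 and 0.062 for Gm5617. Without crest array 1 the counts were 7 and 4, and without neuroepithelium array 1, 2 or 3 the lower genes numbered 12, 17 and 13.

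**Figure D2:**
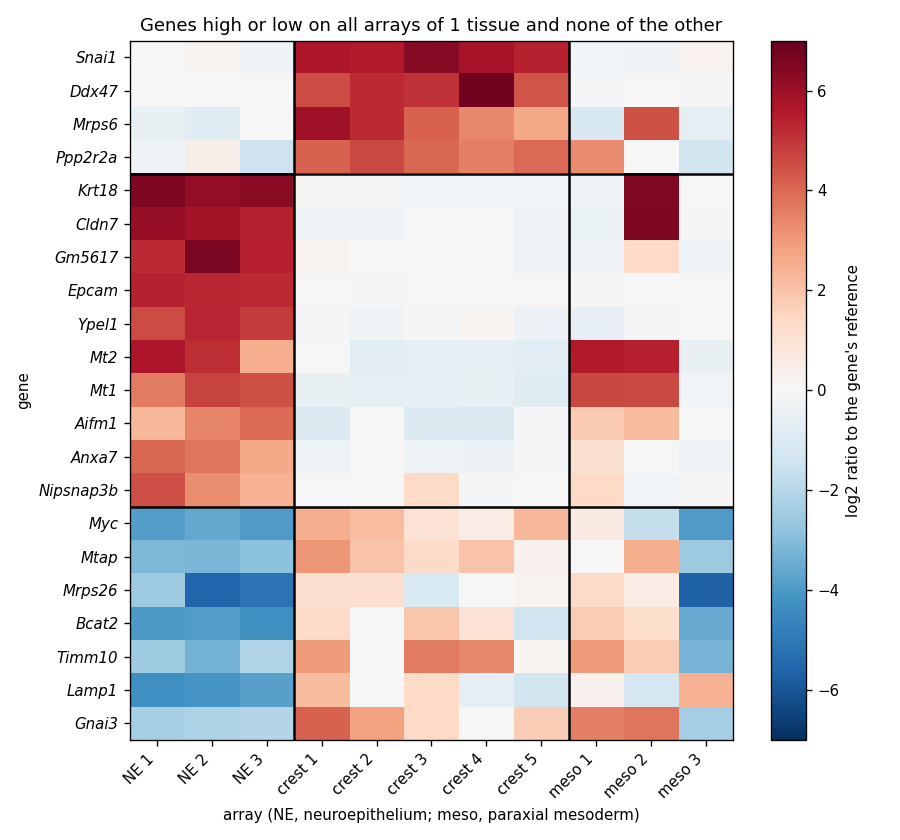
Log2 ratio on each array (columns) of the 21 genes (rows) that were high or low on all arrays of 1 tissue and on none of the other, with the paraxial mesoderm arrays for reference at the right; red is above and blue below the gene's reference. Snai1 and Ddx47 are high on the 5 crest arrays and stay near 0 on the mesoderm arrays, whereas Krt18 and Cldn7 are also high on mesoderm array 2.

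The gene with the most significant increase was Snai1, which encodes the Snail zinc finger repressor. Its ratio was 51.0, 47.0, 82.1, 54.9 and 41.2 on crest arrays 1 to 5 and 1, 1.16 and 0.800 on the neuroepithelium arrays. Every crest array was at least 41.2-fold above the reference and no neuroepithelium array was off it. The difference was 5.78 on the log2 scale (SE 0.23), or 55.1-fold, with an adjusted p of 9.2e-06 by limma. On the mesoderm arrays the ratio lay between 0.856 and 1.17.

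The gene with the most significant decrease was Epcam, which encodes an adhesion glycoprotein of epithelial cells. Its ratio was 41.9, 38.8 and 37.4 on the neuroepithelium arrays and between 0.944 and 1.03 on the 5 crest arrays. Neither group had an array out of place, and the spread inside each was small. Epcam fell by 5.32 on the log2 scale (SE 0.05), a 39.9-fold difference, with an adjusted p of 5.7e-11 by limma, and it lay between 0.947 and 1 on the mesoderm arrays.

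Snail proteins bind the E-box CAGGTG, which reads CACCTG on the other strand. Those letters are in capitals in the promoter windows shown for Snai1 and for some epithelial genes without overlap between the tissues. These genes were picked by hand, and the gap for Crb3 was only 0.021 on the log2 scale. The windows of Ypel1 and Ddx47, which passed the test, hold no match and are not shown. All windows come from RefSeq (GRCm38.p6) and run 5' to 3' on the gene's strand from 250 bases before to 50 after a transcription start. Epcam lies at chr17:87635729-87636028 on the plus strand, with the letters starting 187 and 19 bases before the start site:
Epcam: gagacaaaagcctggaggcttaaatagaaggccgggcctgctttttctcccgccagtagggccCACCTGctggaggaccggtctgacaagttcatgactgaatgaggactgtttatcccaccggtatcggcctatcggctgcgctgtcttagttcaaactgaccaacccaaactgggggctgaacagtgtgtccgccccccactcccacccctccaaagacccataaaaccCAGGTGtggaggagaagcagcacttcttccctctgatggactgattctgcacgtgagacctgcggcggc
Cldn7 is shown for the window of its other start at chr11:69965171-69965470, plus strand, with matches 97 and 57 bases before the start; its window at chr11:69964529-69964828 has none:
Cldn7: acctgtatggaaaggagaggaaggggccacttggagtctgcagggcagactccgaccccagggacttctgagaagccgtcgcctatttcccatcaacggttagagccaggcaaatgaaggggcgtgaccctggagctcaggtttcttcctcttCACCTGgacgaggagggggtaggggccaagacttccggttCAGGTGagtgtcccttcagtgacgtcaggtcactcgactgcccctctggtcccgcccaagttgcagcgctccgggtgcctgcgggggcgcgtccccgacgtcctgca
Cldn4 is at chr5:134946885-134947184 on the minus strand, with matches 14 bases before and 12 bases into the transcript:
Cldn4: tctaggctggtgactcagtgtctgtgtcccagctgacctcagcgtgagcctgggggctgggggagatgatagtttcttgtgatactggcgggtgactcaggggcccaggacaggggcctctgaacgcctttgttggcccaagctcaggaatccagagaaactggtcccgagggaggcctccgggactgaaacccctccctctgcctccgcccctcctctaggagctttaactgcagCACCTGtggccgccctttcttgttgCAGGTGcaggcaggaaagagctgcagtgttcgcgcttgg
Crb3, at chr17:57061951-57062250 on the plus strand, holds 4 matches:
Crb3: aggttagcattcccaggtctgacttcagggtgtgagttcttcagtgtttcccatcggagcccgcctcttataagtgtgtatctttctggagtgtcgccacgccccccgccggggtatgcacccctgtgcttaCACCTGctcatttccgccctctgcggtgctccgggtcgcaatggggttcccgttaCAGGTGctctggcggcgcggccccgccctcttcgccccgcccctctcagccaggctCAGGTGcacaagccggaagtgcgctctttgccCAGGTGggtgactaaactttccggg
Krt18, at chr15:102027966-102028265 on the plus strand, has 1 match, 214 bases before the start:
Krt18: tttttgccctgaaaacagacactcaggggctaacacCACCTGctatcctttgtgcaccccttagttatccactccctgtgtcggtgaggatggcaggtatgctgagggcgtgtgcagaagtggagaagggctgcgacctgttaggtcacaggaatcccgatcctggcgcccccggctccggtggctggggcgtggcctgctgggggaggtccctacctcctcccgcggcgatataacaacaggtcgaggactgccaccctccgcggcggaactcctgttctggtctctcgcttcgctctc
Snai1, at chr2:167537945-167538244 on the plus strand, has 1 match, 126 bases before the start:
Snai1: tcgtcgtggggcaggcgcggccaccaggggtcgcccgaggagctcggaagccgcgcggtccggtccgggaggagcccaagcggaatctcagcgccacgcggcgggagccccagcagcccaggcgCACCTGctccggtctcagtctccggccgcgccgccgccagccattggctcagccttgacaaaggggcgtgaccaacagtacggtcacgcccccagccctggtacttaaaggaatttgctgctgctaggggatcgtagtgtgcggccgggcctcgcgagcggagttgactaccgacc

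The search covered both strands of 32851 promoter windows of 300 bases, for 27025 gene symbols. The letters CAGGTG or CACCTG stood in 20.2% of the windows, and 22.6% of the gene symbols had them in at least 1 window. Of the 10 genes high on all neuroepithelium arrays and on no crest array, 5 had them (Anxa7, Cldn7, Epcam, Krt18 and Mt2), as did 1 of the 3 genes in the table from the class high on all crest arrays and no neuroepithelium array (Snai1) and 1 of the 6 from the class low on all neuroepithelium arrays and no crest array (Bcat2). Among list members in the table, they stood at 10 of 12 epithelial surface genes, 9 of 21 tight junction genes, 12 of 23 polarity genes and 2 of 17 crest specifiers. Some genes have several windows, and by window the numbers were 10 of 15, 12 of 30, 14 of 42 and 2 of 22. Of the 24 epithelial surface genes measured, only 12 were in the table. The palindrome AACCGGTT, bound by Grainyhead-like factors, was in 0.146% of the windows and, of the 19 class genes in the table, at Mt2 alone. The letters GCCNNNGGC, bound by AP-2 factors, were in 16.6% of windows and at Aifm1, Krt18 and Snai1. A match describes a sequence, not an occupied site. The 5 of 10 genes are too few to compare with the table, and the list counts were not tested against it.

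Other epithelial genes followed Epcam in the neuroepithelium arrays to different degrees. Krt18, the type I keratin of simple epithelia, stood at 91.6, 72.4 and 78.6 in neuroepithelium and at 0.863 to 1.04 in crest. Cldn7, a tight junction claudin that binds Epcam, had 67.6, 57.5 and 42.0 against 0.819 to 1. Both sets of arrays were completely apart for these genes, with log2 differences of -6.46 (SE 1.33) and -5.94 (SE 1.36), yet limma's adjusted p was 1 for each. Mesoderm array 2 had ratios of 88.8 for Krt18 and 92.2 for Cldn7, which widened the spread the fit pools over tissues. In the fit of the 8 arrays alone the adjusted p was 6.1e-07 for Krt18 and 2.8e-05 for Cldn7 by limma, and with only mesoderm array 2 left out it was 7.1e-08 and 8.1e-06.

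Krt8, the type II partner of Krt18, had 35.2, 34.0 and 33.9 in neuroepithelium but also 36.3 on crest array 3. The other crest arrays lay between 0.525 and 1, so a single crest array broke the separation. Krt8 was also at 34.4 and 30.5 on mesoderm arrays 2 and 3. Cldn4 had 39.2, 69.6 and 3.98 against 0.816 to 1 in crest, with 45.1 on mesoderm array 2, and missed the limit of 4 on neuroepithelium array 3. It was the closest of 3 genes just outside that class, the others being Mfsd10, whose lowest neuroepithelium ratio was 3.78, and Sinhcaf, with 3.42. The members just inside were Aifm1, with a lowest ratio of 5.07, and Nipsnap3b, with 5.42.

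A further group was high on some of the neuroepithelium arrays and on no crest array. Crb3, an apical membrane protein of the Crumbs polarity complex, had 43.9, 1.07 and 26.9 in neuroepithelium and 0.798 to 1.05 in crest. Rab25, a GTPase of epithelial recycling endosomes, had 36.1, 1.02 and 37.8 against 0.877 to 1. These genes were off their reference on neuroepithelium arrays 1 and 3 and at it on array 2. Ap1m2, the epithelial subunit of a clathrin adaptor, and Spint2, an inhibitor of membrane serine proteases, showed the same arrays high, with 13.1 and 72.8 for Ap1m2 and 22.6 and 24.3 for Spint2. Of the neuroepithelium arrays, number 3 alone was high for the serine protease gene Prss8, at 51.9, and for the tetraspanin gene Cd9, at 94.2. Cldn6 had 1.35, 2.86 and 14.3 against 0.813 to 1.03 in crest. Several of these genes were high in mesoderm too: Rab25 was at 84.6, Ap1m2 at 68.4 and Cldn6 at 25.1 on mesoderm array 2, Cd9 at 51.8 on mesoderm array 1, and Spint2 at 5.85 and 8.14 on mesoderm arrays 1 and 2. No gene of this group passed the test (adjusted p = 1 by limma for each). Crb3 did when neuroepithelium array 2 was left out (adjusted p = 2.1e-05 by limma). That array was the one at the reference for Crb3, so the pass is no support.

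**Figure D3:**
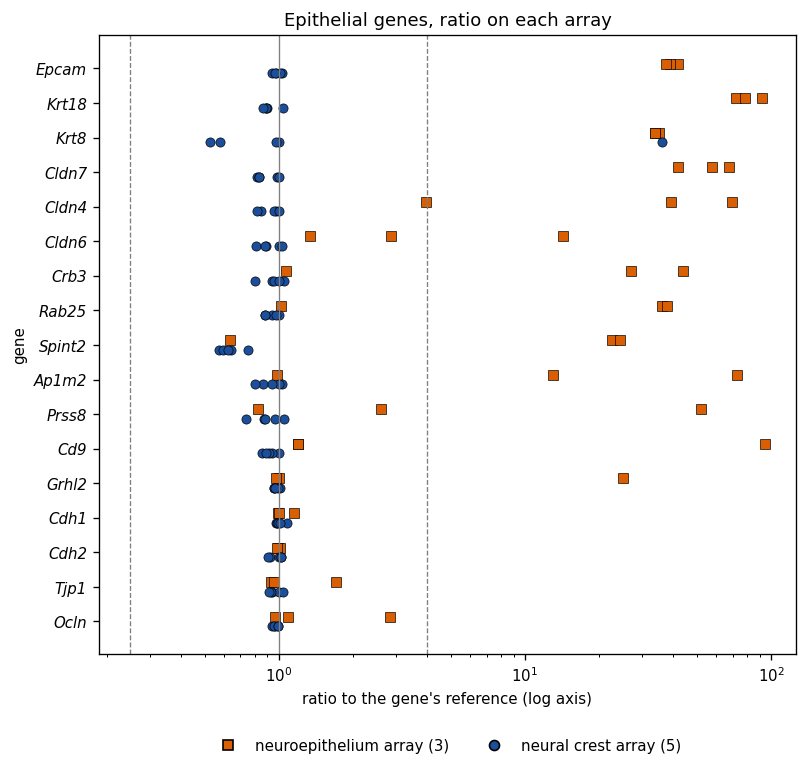
Ratio of 17 epithelial genes on each neuroepithelium array (orange squares, 3) and crest array (blue circles, 5), on a log axis with the reference of 1 as a solid line and the limits of 4 and 0.25 dashed. Epcam, Krt18 and Cldn7 separate the tissues on every array, Crb3 and Rab25 are high on 2 of 3 neuroepithelium arrays, Krt8 has 1 crest array at 36.3, and the cadherins Cdh1 and Cdh2 stay at 1.

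All gene lists, here and below, were chosen with earlier results of these data known. Their shares beside those of all genes therefore describe the members and are no test. By list, 24 epithelial surface and desmosome genes were measured. None rose and 1 fell, Epcam. Of them 9 were high on at least 1 neuroepithelium array (37.5%, where 9.8% of all genes were) and 1 was high on a crest array (4.17%, against 14.3% of all genes). With no overlap between the tissues, 6 were lower in crest (1.53% of all genes were) and 0 higher (1.45%), and the list's median difference was -0.14, against 0.00 over all genes. By array, 4, 3 and 7 members were high on neuroepithelium arrays 1 to 3, and 3, 6 and 0 on mesoderm arrays 1 to 3. Among 27 tight junction genes 6 were high on a neuroepithelium array and 1 on a crest array, and 3 were lower in crest without overlap. The shared scaffold Tjp1 (ZO-1) had 0.917 to 1.71 over the 8 arrays and occludin (Ocln) 0.940 to 2.83. Of 27 polarity genes 3 were high on a neuroepithelium array and 3 on a crest array, and 21 stayed within 2-fold on all 8 arrays (77.8%, against 75.9% of all genes).

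Some of these genes also mark surface ectoderm, the epithelium beside the neural plate. Of 12 surface ectoderm markers, 4 were high on at least 1 neuroepithelium array (Krt8, Krt18, Grhl3 and Wnt6), or 33.3% against 9.8% of all genes, and 2 on a crest array (Krt8 and Tfap2c), or 16.7% against 14.3%. Their summed log2 ratio was 11.5, 22.2 and 12.5 on the neuroepithelium arrays and ran from -1.30 to 6.97 on the crest arrays. On mesoderm array 2, where 3 markers were high, it was 17.9, above neuroepithelium arrays 1 and 3, and on mesoderm arrays 1 and 3 it was -2.38 and 5.28. Grhl3, a Grainyhead-like factor of surface ectoderm, was at 60 and Wnt6 at 15 on neuroepithelium array 2. The other 7 markers (Krt19, Trp63, Dlx3, Foxi3, Gata3, Cdh1 and Ovol1) stayed within 2-fold of their reference on all 8 arrays. The part of surface ectoderm in the epithelial differences was not tested.

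Sox1, Sox2, Sox3 and Pax6, defining transcription factors of neuroepithelium, gave no contrast. Sox2 had 1, 1.02 and 1.03 in neuroepithelium and 0.887 to 1.01 in crest, and Pax6 had 0.944 to 1.27 and 0.888 to 1.05. Sox1 and Sox3 likewise stayed within 2-fold. A ratio near 1 on all arrays does not say whether these genes were active, so the neuroepithelium label could not be checked against them. Of 28 neural progenitor genes 23 stayed within 2-fold (82.1%, against 75.9% of all genes), with a median difference of 0.01. On a neuroepithelium array 3 members were high (10.7%, against 9.8% of all genes), all on array 3, and on a crest array 2 (7.14%, against 14.3%). Otx2 was at 112 on neuroepithelium array 3, 0.959 and 0.996 on arrays 1 and 2, 0.962 to 3.61 in crest and 53.6 on mesoderm array 2. Irx3 was at 10.1 on neuroepithelium array 3, 0.352 to 2.16 in crest and 4.64 on mesoderm array 2. Irx2, an Iroquois factor, had 0.781, 2.10 and 7.0 against 0.563 to 1.07, and Fabp7, a lipid-binding protein of radial glia, had 95.4 and 63.0 on crest arrays 4 and 5 and 0.980 to 1.05 on the other 6 arrays. The fit gave an adjusted p of 1 by limma for both.

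Several genes high in neuroepithelium are not known as epithelial markers. Ypel1, of the yippee family of putative zinc-binding proteins, had 24.0, 40.3 and 30.1 in neuroepithelium and 0.749 to 1.11 in crest. It fell by 5.09 on the log2 scale (SE 0.20, adjusted p = 9.2e-06 by limma). Its other probe differed by only -0.48, and the mean of both probes by -2.79, so the size rests on the probe chosen. The predicted gene Gm5617 had 37.8, 95.4 and 44.0 against 0.855 to 1.19 and fell by 5.77 (SE 0.43, adjusted p = 0.0019 by limma). The Gm5617 call was lost with a trend on the mean log2 ratio (adjusted p = 0.062 by limma) and with the array number as a block (0.16). Anxa7, an annexin that binds phospholipids in the presence of calcium, had 16.0, 13.5 and 6.30 against 0.760 to 1. It fell by 3.68 (SE 0.36, adjusted p = 0.013 by limma). The call ended without crest array 3 (adjusted p = 0.067 by limma) or 4 (0.068), and with a trend on the mean log2 ratio (0.0585). It held in 14 of 21 alternatives, over which the adjusted p by limma ran from 0.0042 to 0.32. Of 16 yippee-like and annexin genes, 5 were high on a neuroepithelium array (31.2%, against 9.8% of all genes) and 4 on a crest array (25%, against 14.3%). These families were listed because Ypel1 and Anxa7 were leading genes, and both are among the 5, so the choice itself raises that share.

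The metallothionein genes Mt1 and Mt2, whose close sequences a probe may not tell apart, moved together. Mt1 had 12.7, 26.6 and 21.8 in neuroepithelium and 0.566 to 0.71 in crest. Mt2 had 49.8, 36.0 and 5.85 against 0.598 to 1. Both were also high on mesoderm arrays 1 and 2, with 25.4 and 24.9 for Mt1 and 46.1 and 43.0 for Mt2, so ratios at or below 1 were shared by crest and mesoderm array 3. Aifm1, a mitochondrial flavoprotein linked to cell death, had 5.07, 10.5 and 15.4 against 0.488 to 1 (adjusted p = 0.23 by limma). Nipsnap3b had 22.4, 9.55 and 5.42 against 0.931 to 2.5 (adjusted p = 0.57 by limma). In the fit of the 8 arrays alone Mt1 passed, with an adjusted p of 0.00063 by limma, and without mesoderm array 3 both Mt1 (adjusted p = 0.00011) and Aifm1 (adjusted p = 0.040) did.

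Apart from Snai1, 3 genes were high on all 5 crest arrays and on no neuroepithelium array. Ddx47, a DEAD-box RNA helicase of ribosomal RNA processing, had 23.5, 37.8, 33.1, 108 and 21.0 in crest and 0.981 to 1.02 in neuroepithelium. It rose by 5.20 on the log2 scale (SE 0.46, adjusted p = 0.0063 by limma). Mrps6, a protein of the small mitochondrial ribosomal subunit, had 60.1, 37.2, 17.3, 10.4 and 6.27 against 0.555 to 1, and mesoderm array 2 was also high, at 22.1. Ppp2r2a, a regulatory subunit of protein phosphatase 2A, had 17.3, 24.3, 16.0, 11.7 and 15.5 against 0.372 to 1.39, with 9.90 on mesoderm array 1. The fit gave an adjusted p of 1 by limma for both, and 0.041 for Ppp2r2a on the 8 arrays alone and 0.039 without mesoderm array 1. No gene had its lowest crest ratio between 3 and 4 with all neuroepithelium arrays below 4.

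A larger set was high on 4 of the 5 crest arrays and on no neuroepithelium array, 29 genes in all. Of these, 15 missed crest array 1, 12 missed crest array 4, 1 missed array 3 (Zpr1) and 1 missed array 5 (Gid8), so the missing array was nearly always one of those with the fewest high genes. Inka1, an inhibitor of the kinase Pak4 that was named for its induction in neural crest by AP-2, had 1, 102, 97.6, 111 and 118 in crest and 0.888 to 0.974 in neuroepithelium. Ifrd1, a transcriptional coregulator, had 0.913, 81.5, 72.9, 113 and 38.6 against 0.909 to 1.43. Neither passed over all arrays (adjusted p = 1 by limma). Both did without crest array 1 (adjusted p by limma 0.045 for Inka1 and 0.00069 for Ifrd1). That array was the one not high for either gene, so these passes are no support. Memo1, which couples receptor tyrosine kinases to cell motility, had 59.3, 24.2, 16.0, 0.448 and 16.5 against 0.472 to 1. Gid8, a subunit of a ubiquitin ligase, had 25.7, 26.5, 10.7, 45.2 and 0.837 against 0.631 to 1.02. It passed only without crest array 5 (adjusted p = 0.012 by limma), the one not high, or with the array number as a block. Zpr1, a zinc finger protein, was the even case, with 42.6 to 46.6 on 4 crest arrays and 0.765 on array 3.

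The same count fell off steeply with the number of arrays. In crest, 1081 genes were high on exactly 1 array and on no neuroepithelium array, 373 on 2, 128 on 3, 29 on 4 and 4 on 5. In neuroepithelium, 628 genes were high on 1 array and on no crest array, 87 on 2 and 10 on 3. Of the genes high on a given array, 17.3% to 28.0% were high on that array alone of the 8. Genes high on all 3 neuroepithelium arrays that were also high in crest numbered 21 for 1 crest array, 19 for 2 and 14 for 3.

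On the low side, the 7 genes at 0.25 or less on all neuroepithelium arrays and on no crest array were Myc, Mtap, Mrps26, Bcat2, Timm10, Lamp1 and Gnai3. Myc, the growth-promoting transcription factor that also belongs to the crest specifiers, had 0.0687, 0.0836 and 0.0630 in neuroepithelium and 5.83, 4.42, 1.99, 1.42 and 4.97 in crest. The tissues were far apart, with a difference of 5.51 (SE 0.92), but mesoderm array 3 was as low as neuroepithelium, at 0.0636, and mesoderm array 1 was at 1.57. The adjusted p was 0.45 by limma over all arrays and 0.033 in the fit of the 8 arrays. Mtap, which salvages a by-product of polyamine synthesis, had 0.113, 0.108 and 0.137 against 1.23 to 8.57. Of the 7 genes, 6 were also low on mesoderm array 3, and the exception, Lamp1, stood at 5.36 there.

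The other low-side genes encode parts of mitochondria, lysosomes and signalling. Timm10, a chaperone of mitochondrial protein import, had 0.181, 0.101 and 0.236 in neuroepithelium and 1 to 12.7 in crest. Mrps26, of the mitochondrial ribosome, had 0.169, 0.0214 and 0.0274 against 0.473 to 2.29, and Bcat2, the mitochondrial aminotransferase for branched-chain amino acids, had 0.0621, 0.0667 and 0.0510 against 0.386 to 3.89. Lamp1, a lysosomal membrane glycoprotein, had 0.0519, 0.0570 and 0.0729 against 0.410 to 4.64, and Gnai3, an inhibitory G protein subunit, had 0.201, 0.219 and 0.241 against 1 to 17.3. All were below every crest array, and none passed (adjusted p = 1 by limma for each of these 5 genes). Pgp and Cops3 were low on neuroepithelium arrays 1 and 2 and not on array 3, with 0.0656 and 0.0686 for Pgp and 0.0102 and 0.0111 for Cops3, and both were low on mesoderm array 3 as well, at 0.0736 and 0.0101. Lamp2, the relative of Lamp1, went the other way, with 1.57, 56.5 and 33.7 in neuroepithelium and 0.945 to 1.02 in crest. It passed when neuroepithelium array 1 was left out (adjusted p = 0.016 by limma). That array was the one out of place for Lamp2, so the pass is no support.

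No gene was low across crest in the same manner. On exactly 1 crest array and no neuroepithelium array 228 genes were low, on 2 arrays 87, on 3 arrays 20 and on 4 arrays 2. Those on 4 arrays were Nudt2, a hydrolase of dinucleotide signals, and Pex13, a peroxisomal import protein. Nudt2 had 0.0817, 1.62, 0.0978, 0.0684 and 0.0776 in crest and 3.74, 8.25 and 1 in neuroepithelium. Pex13 had 0.125, 3.62, 0.140, 0.133 and 0.149 against 8.95, 6.59 and 1. Crest array 2 was the exception for both.

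Over all genes, 289 were higher in crest with no overlap between the tissues (1.45%) and 306 lower (1.53%), which together make 2.98% of all genes. Most of these gaps were narrow. The absolute difference had a median of 0.21 on the log2 scale among the higher genes and 0.14 among the lower, and 69.9% and 76.1% of them differed by less than 2-fold. A gap of at least 1 between the nearest arrays of the tissues was left for 13 higher and 15 lower genes, and a gap of at least 2 for 11 and 9. Tm7sf2, a sterol reductase, with 63.2, 64.8 and 1.95 in neuroepithelium and 0.890 to 1.06 in crest, and Ddt, a tautomerase, with 84.0 to 89.1 against 0.788 to 41.3, were among the lower genes with the largest differences. Pop7, of the RNase P complex, had 5.93 to 11.6 against 0.216 to 4.12. None of these 3 genes passed (adjusted p = 1 by limma). Tm7sf2 passed without neuroepithelium array 3 (adjusted p = 6.7e-09 by limma). That array was the one out of place for the gene, so the pass is no support.

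Among transcription factors of epithelial to mesenchymal transition, Snai1 alone passed the test. Of 21 measured, 1 rose and none fell, 2 were higher in crest without overlap (Snai1 and Sox9; 9.52%, against 1.45% of all genes), and 13 stayed within 2-fold on all 8 arrays (61.9%, against 75.9% of all genes). Snai2, the Slug repressor, had 0.972 to 1.08 in neuroepithelium and 0.961 to 1.06 in crest, and Zeb2, another E-box repressor, had 0.921 to 1.30 against 0.926 to 1.35. Twist1, a basic helix-loop-helix factor of mesenchyme, had 0.967, 8.79, 3.29, 1.01 and 27.3 in crest but also 5.92 on neuroepithelium array 2. Grhl2, a Grainyhead-like factor that maintains epithelia, was at 25 on neuroepithelium array 3 alone, and the splicing factor Esrp1 at 5.64 on array 2 alone. The list's median difference was 0.05, and the gap between the tissues for Sox9 was only 0.24 on the log2 scale.

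The cadherin genes Cdh1 and Cdh2 stayed near their reference. Of 27 cadherins, catenins and nectins none passed the test, 22 stayed within 2-fold on all 8 arrays (81.5%, near the 75.9% of all genes), and the median difference was -0.01. Cdh1 had 0.996 to 1.15 in neuroepithelium and 0.980 to 1.08 in crest, and Cdh2 (N-cadherin) 0.983 to 1.01 against 0.903 to 1.02. Cdh11 had 0.944 to 1.08 over the 8 arrays and Cdh7 0.964 to 1.08. Cdh6, a cadherin of premigratory crest, was at 8.51 on crest array 5 and between 0.955 and 1.09 on the others. The member with the largest difference was Ctnna1 (alpha-catenin), with 12.1, 31.5 and 13.5 on crest arrays 2, 3 and 5, 8.04 on neuroepithelium array 3, and 10.9 and 6.24 on mesoderm arrays 1 and 2.

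Crest specifiers, the transcription factors that define crest identity, held both the gene with the clearest rise and members high on a few crest arrays only. Of 25 members 12 were high on at least 1 crest array (48.0%, against 14.3% of all genes) and 3 on a neuroepithelium array (12%, against 9.8%). This list too was chosen with earlier results of these data known, so the shares are no test. Snai1 rose and none fell. The median difference was 0.50, and 6 members were higher in crest without overlap (Sox9, Snai1, Myc, Mycn, Id3 and Dlx2), or 24.0% against 1.45% of all genes. Most of these gaps were narrow, 0.0046 on the log2 scale for Mycn, 0.20 for Dlx2, 0.21 for Id3 and 0.24 for Sox9. Only Snai1 and Myc had wide gaps. The size of the Id3 difference rests on a single value, 0.01 on neuroepithelium array 2. By array, 2, 6, 5, 2 and 11 members were high on crest arrays 1 to 5 and 1 on each neuroepithelium array. Crest arrays 1 and 4, with the fewest, were also those with the fewest high genes over the whole array, and the part of that difference in these counts was not tested.

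Among the specifiers, Sox9, an SRY-type factor of premigratory crest, had 1.33, 17.2, 1.46, 1.21 and 21.3 in crest and 0.862 to 1.03 in neuroepithelium. Sox10, which follows it in migrating crest, had 2.69, 2.42, 1.51, 1.10 and 7.67 against 0.812 to 1.16. Both had their highest ratio on crest array 5, and only Sox10 overlapped between the tissues. Lmo4, a LIM-only cofactor, had 1.05, 10.8, 85.6, 0.985 and 98.3 against 0.867 to 3.88, and Nr2f1, an orphan nuclear receptor, had 0.888, 1, 10.5, 4.91 and 17.9 against 0.553 to 1.41. Tfap2b, an AP-2 factor, had 1, 27.9, 21.4, 0.936 and 51.3, with 22.6 on neuroepithelium array 3. Foxd3, a forkhead factor of early crest, reached 3.99 on crest array 4 and had 1 to 1.26 in neuroepithelium. Tfap2a, Ets1 and Snai2 stayed within 2-fold on all 8 arrays.

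**Figure D4:**
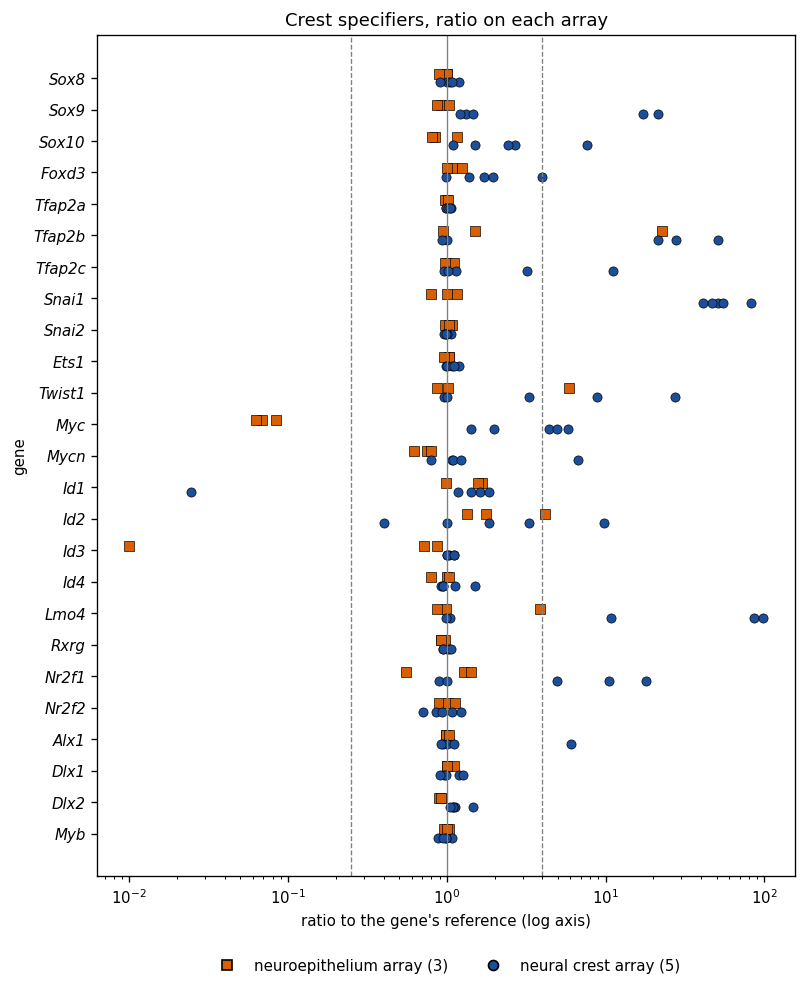
Ratio of the 25 crest specifiers on each neuroepithelium array (orange squares, 3) and crest array (blue circles, 5), on a log axis with the reference of 1 as a solid line and the limits of 4 and 0.25 dashed. Snai1 is high on all 5 crest arrays, Sox9, Lmo4, Tfap2b and Nr2f1 on 2 or 3 of them, Myc is low on all 3 neuroepithelium arrays, and Tfap2a, Snai2 and Ets1 stay near 1.

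Genes of the plate border and dorsal midline, from which crest arises, held no gene that passed the test, which only 0.0301% of all genes passed. Of 19 members 14 stayed within 2-fold on all 8 arrays (73.7%, against 75.9% of all genes). Pax3 had 0.937 to 1.06 in neuroepithelium and 1 to 1.32 in crest, and Zic1 0.977 to 1.01 against 0.970 to 1.19. Msx1, a homeobox factor downstream of BMP, had 24.7, 46.1 and 7.97 in neuroepithelium and 32.3 on crest array 3, with 0.796 to 1 on the other crest arrays and 34.9 on mesoderm array 2. Krt8 was high on the same crest and neuroepithelium arrays. Wnt1, the dorsal midline ligand, was at 32.9 on crest array 2 alone.

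Genes of the contractile and motile cytoskeleton were high on different arrays. Of 40 actin and myosin genes none passed, while 9 were high on a crest array (22.5%, against 14.3% of all genes) and 5 on a neuroepithelium array (12.5%, against 9.8%). Tpm4, a tropomyosin, had 25, 9.04, 10.6, 0.546 and 8.03 against 0.701 to 2.96, and Arpc1b, of the Arp2/3 complex, had 39.3, 9.07, 0.964, 1 and 4.51 against 0.839 to 1.70. The intermediate filament gene Vim had 5.76, 2.49, 3.19, 5.35 and 4.67 in crest and 1, 4.42 and 0.264 in neuroepithelium.

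No gene of adhesion to matrix or of guidance passed the test, which only 0.0301% of all genes passed. Over all genes 75.9% were within 2-fold on all 8 arrays, against 18 of 21 integrin genes (85.7%), 27 of 32 basement membrane and matrix genes (84.4%), 15 of 22 proteases and inhibitors (68.2%) and 38 of 41 guidance genes (92.7%). Fbln1, a fibulin of embryonic matrix, had 2.16, 7.64 and 3.08 in neuroepithelium and 0.699 to 1.37 in crest, with 32.6 on mesoderm array 3. The lysosomal protease gene Ctsl was low on crest arrays 1 to 4, at 0.0642 to 0.156, but also on neuroepithelium array 2, at 0.0711. In guidance, 3 of 41 members were high on a neuroepithelium array (7.32%, against 9.8% of all genes) and 0 on a crest array (14.3% of all genes). Pdgfa, a growth factor ligand, had 11.7, 0.911 and 46.2 against 0.607 to 1.11, and Efna1, an ephrin ligand, had 14.7 on neuroepithelium array 3 and 0.945 to 1.11 elsewhere.

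Of the signalling lists, no member passed among 30 BMP and TGF beta genes, 43 Wnt genes, 27 FGF and ERK genes or 19 Notch genes. Only 0.0301% of all genes passed, so lists of this size would rarely hold one. Between 0% and 16.7% of a list's members were high on a neuroepithelium array (9.8% of all genes). On a crest array 10% to 14.8% were (14.3% of all genes). The median differences lay between -0.04 and 0.05. Nkd1, a feedback inhibitor of Wnt signalling, had 1.42, 22.3, 36.9, 43.6 and 0.869 in crest and 0.795 to 1 in neuroepithelium. Spred2, which restrains ERK signalling, had 0.857, 4.19, 7.64, 10.4 and 30.6 against 0.958 to 1.14. Each was high on 3 or 4 crest arrays and on no neuroepithelium array. The chosen Spred2 probe differed by 2.58, its other probe by only 0.27 and the mean of both by 1.42, so the size rests on the probe chosen. Bambi, a decoy receptor for BMP ligands, had 12.2, 28.7 and 1.6 in neuroepithelium and 8.07 on crest array 5, with 0.682 to 1.68 on the other crest arrays. Id3, a BMP target, was at the lowest ratio in the files, 0.01, on neuroepithelium array 2 and on mesoderm array 1, and at 0.722 to 1.12 on the other 9 arrays.

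Cell cycle genes held many low values. Of 29 genes of G2 and M phase none passed, the median difference was 0.71, and 10 were more than 2-fold higher in crest (34.5%, against 5.53% of all genes). Of the 29, 10 were low on at least 1 neuroepithelium array and 11 on a crest array, where 2.58% and 3.65% of all genes were low. Plk1, a kinase of mitosis, had 0.990, 0.0711 and 0.114 in neuroepithelium and 1, 2.05, 1.70, 0.134 and 2.41 in crest. Cenpa, the centromeric histone, was at 0.0516 on neuroepithelium array 2 and at 0.436 to 1.57 on the other neuroepithelium and crest arrays. The low values lay mainly on neuroepithelium array 2, with 10 members, and on crest arrays 1 and 4, with 7 and 6, which are also the arrays with the most low genes overall. Whether that difference between arrays sets the median was not tested. Wee1, which delays entry into mitosis, had 12.2, 4.06, 5.86, 0.344 and 9.78 against 0.230 to 1.

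Of 31 genes of G1 and S phase none passed, and 6 were more than 2-fold lower (19.4%, against 5.29% of all genes) and 3 higher in crest. Cdt1, which licenses replication origins, had 0.0353, 1, 0.836, 0.0301 and 0.499 in crest and 1.09 to 1.48 in neuroepithelium. Rrm1, of ribonucleotide reductase, had 14.3, 0.530 and 11.4 in neuroepithelium and 0.386 to 1.86 in crest. Cdk2, the S phase kinase, had 1.03, 1.25, 8.54, 1 and 19.0 against 0.745 to 0.960. In the Myc network, 4 of 21 genes were higher in crest without overlap (Myc, Mtap, Srm and Mycn; 19.0%, against 1.45% of all genes) and 0 lower (1.53%). Srm, the spermidine synthase, had 0.670, 0.0188 and 0.678 against 1.03 to 1.23, and Mycn had 0.622 to 0.795 against 0.797 to 6.65.

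Ddx47 belongs to a family of RNA helicases that also held other genes high on crest arrays and on mesoderm array 1. The family was listed because Ddx47 was a leading gene, and Ddx47 is counted in it. By array, 2, 7, 6, 4 and 12 members were high on crest arrays 1 to 5, and 13, 3 and 1 on mesoderm arrays 1 to 3. On neuroepithelium arrays 1 to 3 the numbers were 2, 1 and 4. Over all genes, 410, 1159, 1064, 410 and 1500 were high on crest arrays 1 to 5. On mesoderm arrays 1 to 3 these totals were 1617, 804 and 381, and on neuroepithelium arrays 1 to 3 735, 580 and 1122. The part of these totals in the family's counts was not tested. Of 46 DEAD and DEAH box genes 16 were high on at least 1 crest array (34.8%, against 14.3% of all genes) and 6 on a neuroepithelium array (13.0%, against 9.8%). Ddx47 rose, none fell, and the median difference was 0.08. Ddx41, a helicase of splicing and nucleic acid sensing, had 2.33, 14.6, 1.47, 26.4 and 5.33 in crest and 0.860 to 1.71 in neuroepithelium. Of 25 lysosomal genes 8 were high on a neuroepithelium array and 5 on a crest array, and of 21 mitochondrial cell death genes 6 and 4 were. None of either list passed.

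**Figure D5:**
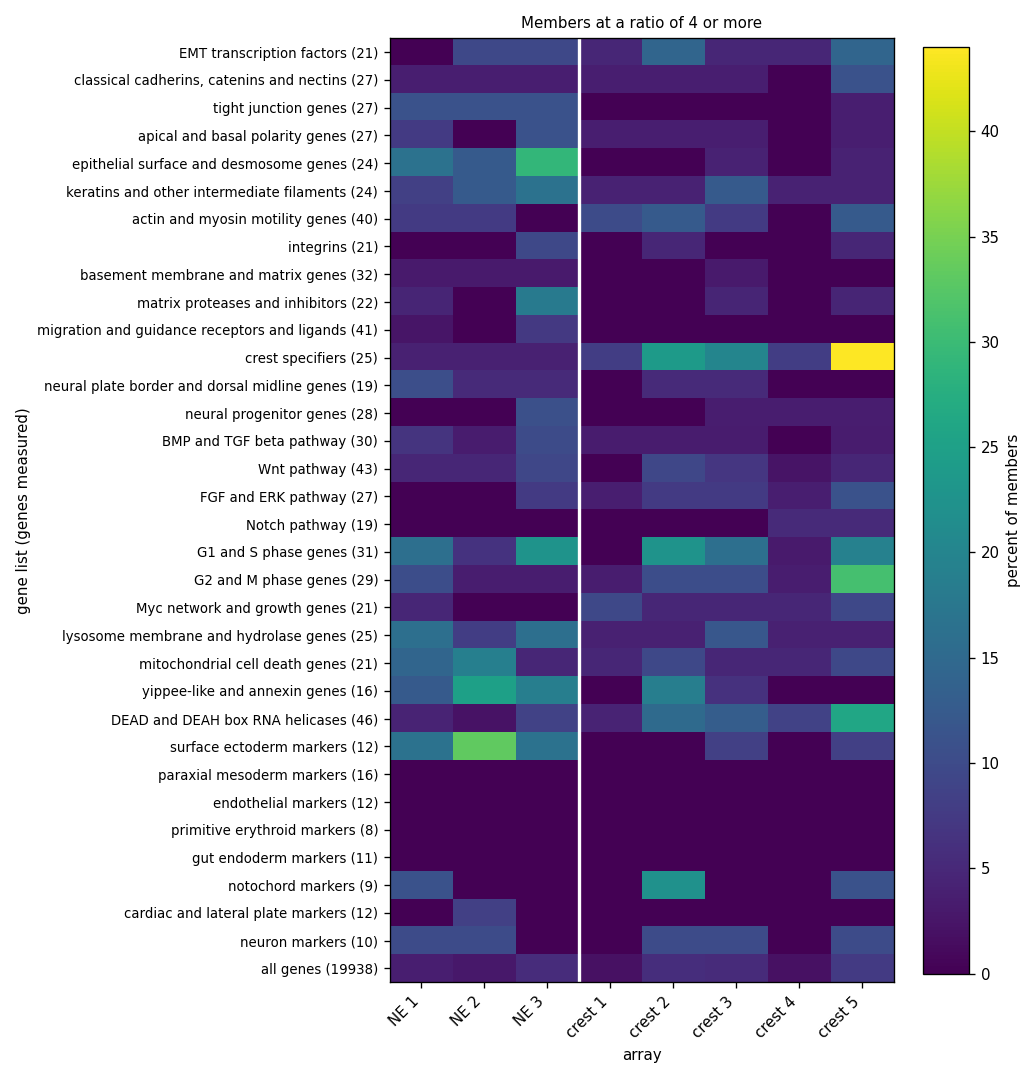
Percent of the members of each gene list (rows, with the number of genes measured) at a ratio of 4 or more on each neuroepithelium (NE) and crest array (columns), with all 19938 genes as the last row. Epithelial surface genes and surface ectoderm markers are high mainly on the neuroepithelium arrays, and crest specifiers mainly on crest arrays 2, 3 and 5, with 11 of 25 on array 5.

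Markers of other nearby cell types mostly stayed within 2-fold, as 75.9% of all genes did. All 16 paraxial mesoderm markers, 12 endothelial, 8 primitive erythroid and 11 gut endoderm markers stayed within 2-fold of their reference on all 8 arrays. Of 12 cardiac and lateral plate markers 11 did, the exception being the atrial myosin light chain gene Myl7, at 38.2 on neuroepithelium array 2. Of 9 notochord markers 7 did, and of 10 neuron markers 8 did. Tubb3, the neuronal tubulin, was high on neuroepithelium arrays 1 and 2, at 21.3 and 38.3, and on crest arrays 2, 3 and 5, at 21.7, 36.9 and 46.1. On mesoderm array 1, outside these 8 arrays, all 8 primitive erythroid markers were high. On mesoderm array 3, 2 gut endoderm and 3 notochord markers were high. A marker within 2-fold on all 8 arrays may still be present at a like level in all.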

How the data were processed

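Gene expression was measured on 11 arrays, of which 8 form the comparison. The deposited values are a linear ratio per probe, with no intensity or count, so depth does not apply and the number of arrays limits the precision. Per the submitters' processing notes, RMA and the build mm9 were used, with no version given, and the sources used here do not say how the authors made the ratio. The column medians and the places of exact 1s show the reference to be a median over 9 arrays, 1 of which is not analysed here.

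Of 35557 probes listed, 28856 had values. Platform annotation gave 1 symbol to 21789, several to 1621 and none to 5446, and 21698 matched a RefSeq table (GRCm38.p6) by Entrez identifier. The probe with the highest mean log2 ratio over 11 arrays stood for each of 19938 genes, 999 of which had several. A separate fit of the 7067 other probes called 0 at an adjusted p under 0.05 by limma, with 226 at an unadjusted p under 0.05.

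Log2 ratios were fitted with limma 3.58.1 (R 4.3.3; lmFit and eBayes, no trend, since ratios carry no intensity for one), as 3 group means over 11 arrays. Tables were made in Python 3.11.15. In data simulated with normal noise at these group sizes, the fit called 98 of 100 genes changed by a log2 value of 3 and 100 of 100 changed by 5. The changed genes were drawn only from genes with a small spread within tissues. These shares therefore do not cover genes with a wide spread in the fit, such as Krt18, Cldn7 and Inka1. Counts per array were compared by an exact permutation test. Arrays with the same number in both tissues did not deviate together (correlations of -0.0483, -0.0655 and 0.0505), so numbers were not taken as pairs.

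The members and the 34 gene lists were chosen with earlier results of these data known. The results of 1 list are not reported here. Genes were named if they passed the test, were among the 12 largest differences each way without overlap, were high or low on all arrays of 1 tissue and none of the other (up to 15 a class), were among the 5 largest absolute differences of a list, or belonged to the crest specifier, transition factor or cadherin lists. Esrp1, Tubb3 and other members given for their array pattern, the 29 genes high on 4 crest arrays, Nudt2, Pex13, Mfsd10 and Sinhcaf were chosen after their values were seen. Alternatives changed the fit, the scaling, the probe rule, the limits and the arrays included.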

Additional observations from a re-analysis of the deposited data

Results flagged for a closer look

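Among 77 values checked for a crest array far from the other 4, 15 stood out by Dixon's test. Chance flags about 1 in 20 groups, but the 15 cannot be read against that: several genes, such as Inka1, Ifrd1, Zpr1 and Memo1, were named because they were high or low on exactly 4 of the 5 crest arrays, which fixes an outlying array. On crest array 1, Inka1 was at 1 with the others at 97.6 to 118, Ifrd1 at 0.913 with the others at 38.6 to 113, Mrpl19 at 0.934 with the others at 19.2 to 62.3, and Mrps7 at 0.976 with the others at 38.8 to 55.0. The same array was slightly above the others for Krt18, at 1.04 against 0.863 to 0.896, and for Mt2, at 1 against 0.598 to 0.641.

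On crest array 3, Krt8 was at 36.3 with the others at 0.525 to 1, Msx1 at 32.3 with the others at 0.796 to 1, Mycn at 6.65 with the others at 0.797 to 1.22, and Nipsnap3b at 2.5 with the others at 0.931 to 0.997. Zpr1 was at 0.765 there with the others at 42.6 to 46.6. On crest array 2, Nudt2 was at 1.62 with the others at 0.0684 to 0.0978 and Pex13 at 3.62 with the others at 0.125 to 0.149. Memo1 was at 0.448 on crest array 4 with the others at 16.0 to 59.3, and Ctsl at 2.56 on crest array 5 with the others at 0.0642 to 0.156.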

How the results depend on the processing

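The counts of genes that passed, 2 higher and 4 lower in crest, became 0 and 2 with a trend on the mean log2 ratio. On the 8 arrays alone they were 4 and 7. Leaving out 1 array gave 2 to 7 higher genes and 3 to 17 lower ones, with 7 higher without crest array 1 and 12, 17 and 13 lower without neuroepithelium arrays 1, 2 and 3. The fit with the replicate number as a block gave 4 higher and 2 lower, of which 4 genes were among the 6 of the fit given: it lost Gm5617 and Anxa7, added Gid8 and Riok3, changed no other call and put the difference of Fabp7 at -0.017. An alternative chosen after seeing the data, without crest arrays 1 and 4, gave 9 higher and 3 lower genes. Epcam and Ypel1 passed in all 21 alternatives, Snai1 and Ddx47 in 20 each (not with the trend), Gm5617 in 19 and Anxa7 in 14. Genes without overlap numbered 13 higher and 15 lower with a gap of at least 1, 411 to 810 and 435 to 843 when 1 array was left out, and 966 and 1162 without crest arrays 1 and 4. The classes, of 10, 4, 7 and 0 genes, ran from 10 to 49 (high in neuroepithelium), 4 to 19 (high in crest), 7 to 21 (low in neuroepithelium) and 0 to 2 (low in crest) when 1 array was left out. The largest shifts were 37, 49 and 31 genes high in neuroepithelium without its arrays 1, 2 and 3 and 18 and 19 without crest arrays 3 and 5, 19 and 16 high in crest without crest arrays 1 and 4, 14 and 21 low in neuroepithelium without its arrays 1 and 3, and 2 low in crest without crest array 2. Without crest arrays 1 and 4, 78 genes were high in crest and 11 low in neuroepithelium, and a limit of 8 left 3 low in neuroepithelium. The mean crest excess in high genes per array, 96.3, ran from -51.6 to 251 when 1 array was left out, and that in low genes, -3.40, from -75.3 to 89.6. The former changed sign without neuroepithelium array 2 (-19.9) or crest array 5 (-51.6), and the latter without neuroepithelium array 2 (89.6) or crest array 2 (32.3), 3 (16.0) or 5 (33.8). A smaller number of arrays by itself widens the counts without overlap and the classes; other causes were not tested.

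Limits: 5 and 3 arrays, unknown numbers of cells and embryos, ratios without levels, and a fit whose spread takes in mesoderm arrays that were high for Krt18, Cldn7 and Mt1 restrict what can be called.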

Other observations

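Proteins of the mitochondrial ribosome, a family looked at after Mrps6 and Mrps26 had been seen at the extremes, varied far more than those of the cytosolic ribosome. Of 77 Mrps and Mrpl genes 36 were high on at least 1 crest array (46.8%, against 14.3% of all genes) and 32 on a neuroepithelium array (41.6%, against 9.8%). None of 58 cytosolic Rps and Rpl genes was high on any of the 8 arrays. By array, 6, 22, 17, 6 and 29 of the mitochondrial genes were high on crest arrays 1 to 5 and 17, 11 and 15 on neuroepithelium arrays 1 to 3. The low members numbered 22, 3, 7, 9 and 1 in crest and 2, 23 and 8 in neuroepithelium. Crest arrays 1 and 4 also had the fewest high genes over all genes, 410 each. Crest array 1 and neuroepithelium array 2 had the most low genes, 503 and 405. The part of that difference between arrays in these counts was not tested.

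In crest, Mrps6 was high on all 5 arrays and Mrpl19 and Mrps7 on 4, with none of them high in neuroepithelium. Mrpl19, of the large subunit, had 0.934, 62.3, 21.7, 52.7 and 19.2 in crest and 0.893 to 0.906 in neuroepithelium. Mrps7, of the small subunit, had 0.976, 55.0, 45.2, 38.8 and 47.7 against 0.838 to 2.11. The median difference of the 77 genes was 0.50, and 0 of them passed the test at an adjusted p under 0.05 by limma.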
